A study of Mus musculus with 6 samples.

Results

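Chemokine ligands, the small secreted proteins that steer white blood cells through tissue, were examined in lungs of Zpbp2 knock-out (KO) and wild type (WT) mice. Genes were taken from the deposited count table when their symbol began with Ccl, Cxcl, Cx3cl or Xcl followed by a digit. The homing chemokines Ccl19, Ccl21a, Ccl21b, Ccl21c and Cxcl13 were excepted. Of the 47069 genes in the table, 46 matched this pattern, 8 of them were excepted, and 38 genes with 36 distinct symbols remained. With the default filter of edgeR on low counts, 29 of the 38 were tested.

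RNA was sequenced from whole lungs of 3 WT mice (WT4, WT5 and WT6) and 3 KO mice (KO4, KO5 and KO6), collected at zeitgeber time 10, that is 10 h after lights on, and no treatment is named. WT mice were C57BL/6J and KO mice were of the B6.129S7-Zpbp2tmZuk/Mmjax line, in which exons 1 to 3 of Zpbp2 are deleted on a C57BL/6J background. Both came from 1 colony. The methods name adult mice of both sexes for the collection of organs around the clock, and do not give the sex or age of the sequenced mice. The name of the line records a 129S7 origin of the mutation, so effects of the deletion and of any 129S7 sequence kept around it cannot be told apart.

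Chemokines bind G protein-coupled receptors on leukocytes, and most ligands of the inflammatory kind share receptors with one another. Several CC ligands lie side by side in the genome as a gene cluster, and many are induced in macrophages, lymphocytes, endothelium or epithelium by interferons and by signals that act through NF-kappaB. Other ligands are made without a stimulus, such as Cxcl12, which retains progenitor cells, and Cxcl15, or lungkine, which is secreted by lung epithelium.

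Total counts lay between 19981428 and 46796908 per mouse, at which 3 counts, taken as the floor of detection for counting error only, equal 0.0629 to 0.148 CPM. CPM values are counts scaled by library size with TMM factors, and SE is the standard error of the edgeR fit. Zpbp2 had at most 2 counts in any mouse, so the deletion could not be checked at this depth. KO5 was the deepest library, had the lowest summed level of 8 airway epithelium genes (21925 CPM against 28073 to 37659 in the other 5 mice), and had 2 to 9 counts of each of the Y-linked genes Ddx3y, Kdm5d, Eif2s3y and Uty, of which the other mice had at most 1. Xist, the transcript of the inactive X chromosome, lay between 715 and 994 CPM in all 6 mice and was highest in KO5. WT6 stood apart in 6 immediate early genes, which summed to 528 CPM in WT6 and to between 95.9 and 217 CPM in the other mice. The lung markers were present in every mouse, with 17027 to 23412 CPM summed over 7 alveolar type 2 genes.

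Of the 29 tested ligands, 4 were higher in KO mice with an adjusted p of at most 0.05 (edgeR quasi-likelihood test with Benjamini-Hochberg adjustment over all genes), namely Ccl5, Ccl8, Ccl9 and Ccl12. These are 13.8% of the tested ligands, beside 3.72% of all genes tested. No ligand passed in the lower direction, beside 2.67% of all genes. At an unadjusted p of at most 0.05 there were 8 higher and 2 lower ligands. Together these are 34.5% of the tested ligands, beside 25.5% of all genes, with 27.6% against 13.9% in the higher and 6.90% against 11.6% in the lower direction. For the lower direction, edgeR's exact test and DESeq2 each placed 1 ligand, Cxcl14, below the adjusted threshold. Ccl8 was the only 1 of the 29 also past the fold threshold of 1.5 on the log2 scale, which is 3.45%, against 0.64% of all genes. Over the tested ligands 15 were positive and 14 negative, and the median log2 fold change was 0.07, where the median over all genes was 0.003.

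The 3 KO values lay above the 3 WT values in 7 ligands (24.1% against 17.0% of all genes) and below them in 1 ligand (3.45% against 15.6% of all genes). The 7 were Ccl5, Ccl8, Ccl9, Ccl12, Cxcl9, Cxcl10 and Xcl1, and the 1 was Cxcl14. The calls depended on single mice. Without KO4 or without KO5, 3 of the ligands passed in the higher direction, and without KO6, WT4, WT5 or WT6 the count was 0. Over all genes, those 4 fits called 117, 254, 1 and 63 genes, against 1089 with all mice. Exact permutation tests of 3 mice against 3 cannot give a p below 0.1.

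**Figure D1:**
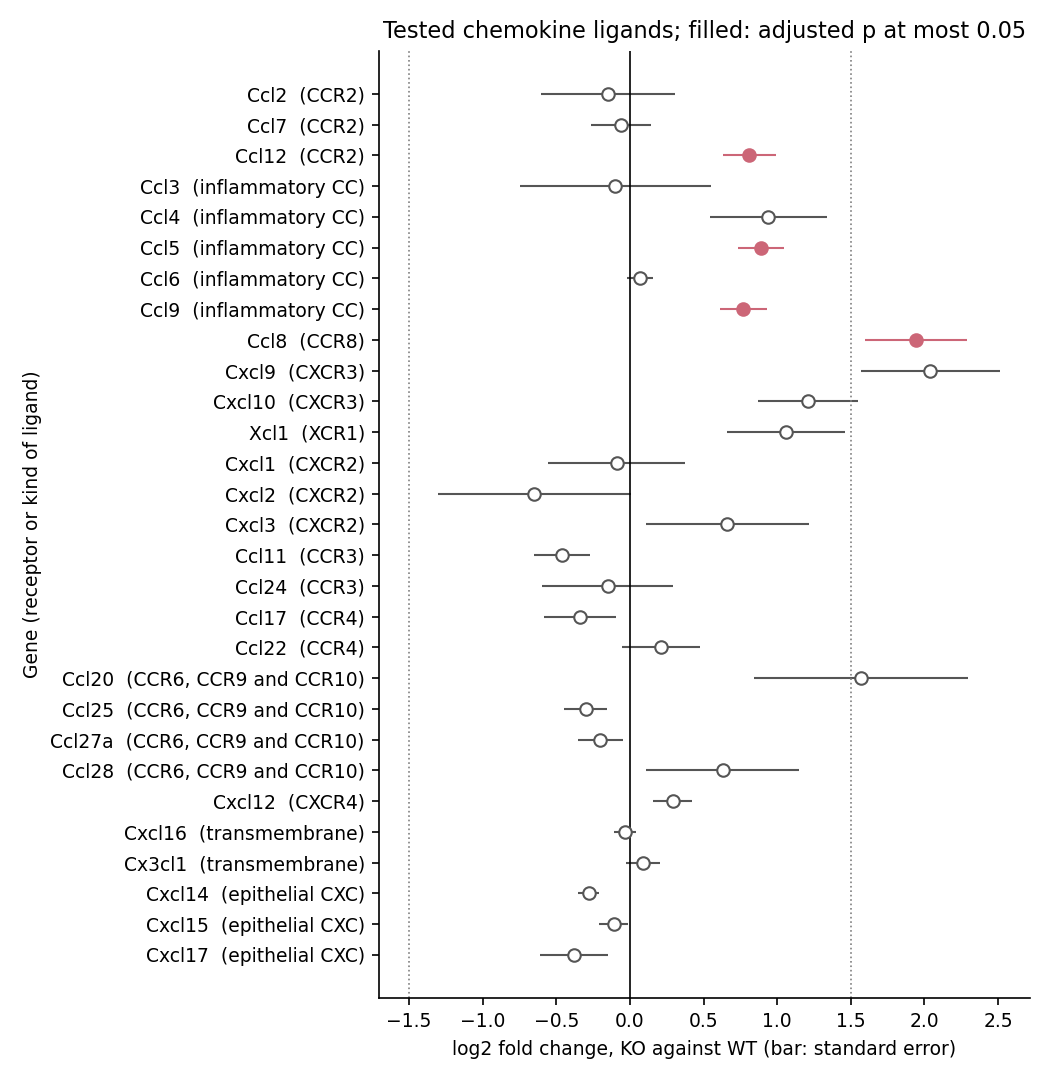
Log2 fold change of KO against WT mice for the 29 tested chemokine ligands, ordered by the receptor they bind or the kind of ligand, with bars for the standard error from edgeR's quasi-likelihood fit and dotted lines at 1.5 in either direction. The 4 filled points (Ccl12, Ccl5, Ccl9 and Ccl8) passed an adjusted p of 0.05, and the values run from -0.65 for Cxcl2 to 2.04 for Cxcl9.

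The sequences before the start sites of 5 of these ligands are shown, each of which had its 3 KO values above its 3 WT values. Ccl8, Ccl12 and Ccl9 are the called ligands matched to an entry (Ccl5 was not matched), and Cxcl9 and Cxcl10 were added after their values were seen as the tested ligands of CXCR3. RefSeq start sites on GRCm38.p6 were given for 23 of the ligands, and the window is the 250 bases before the start, read 5′ to 3′ on the strand of the gene. Capitals mark matches, on either strand, to the interferon-stimulated response element (GAAA, any 2 bases, GAAA), to the kappaB motif (GGGA, any 4 bases, CC), or to the REV-ERB and ROR core TAGGTCA or TGGGTCA.
Ccl8 (chr11:82114935-82115184, plus strand) and Ccl12 (chr11:82101595-82101844, plus strand) are as follows.
Ccl8: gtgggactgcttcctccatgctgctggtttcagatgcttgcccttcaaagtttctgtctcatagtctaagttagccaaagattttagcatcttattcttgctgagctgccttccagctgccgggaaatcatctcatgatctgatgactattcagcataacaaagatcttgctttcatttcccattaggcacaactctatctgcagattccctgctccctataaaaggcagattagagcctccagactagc
Ccl12: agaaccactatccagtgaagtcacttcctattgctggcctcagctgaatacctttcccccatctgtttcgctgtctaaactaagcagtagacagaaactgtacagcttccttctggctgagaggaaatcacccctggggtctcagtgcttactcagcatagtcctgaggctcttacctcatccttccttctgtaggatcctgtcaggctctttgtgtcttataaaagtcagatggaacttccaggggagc
Ccl9 lies on the minus strand (chr11:83578637-83578886).
Ccl9: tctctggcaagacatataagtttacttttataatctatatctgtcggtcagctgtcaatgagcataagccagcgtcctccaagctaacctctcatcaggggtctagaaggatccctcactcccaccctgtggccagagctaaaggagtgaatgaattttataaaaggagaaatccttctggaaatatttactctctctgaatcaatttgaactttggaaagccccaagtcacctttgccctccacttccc
Cxcl9 (chr5:92328080-92328329) and Cxcl10 (chr5:92348890-92349139) both lie on the minus strand.
Cxcl9: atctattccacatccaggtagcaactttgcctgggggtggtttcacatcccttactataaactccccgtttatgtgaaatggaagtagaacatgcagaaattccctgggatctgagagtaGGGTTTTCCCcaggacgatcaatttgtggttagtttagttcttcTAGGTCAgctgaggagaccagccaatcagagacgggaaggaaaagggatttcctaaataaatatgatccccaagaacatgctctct
Cxcl10: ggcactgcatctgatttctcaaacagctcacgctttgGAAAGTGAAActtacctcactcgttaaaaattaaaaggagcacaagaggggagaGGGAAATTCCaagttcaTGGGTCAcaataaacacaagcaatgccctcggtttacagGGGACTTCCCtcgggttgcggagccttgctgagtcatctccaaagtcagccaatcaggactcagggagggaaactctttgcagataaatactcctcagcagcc

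The Cxcl10 window held 1 response element starting 213 bases before the start site, 2 kappaB matches at 159 and 103 bases, and 1 REV-ERB and ROR core at 142 bases. The Cxcl9 window held a kappaB match at 130 bases and a core at 86 bases. The windows of Ccl8, Ccl12 and Ccl9 held none of these letters, nor the GAS motif (TTC, any 3 bases, GAA) or the E-box CACGTG, which were also searched. The window of Xcl1, which is not shown, held no match either. None of the capitalised matches overlap one another. Among all 32851 windows of this length, 2.98% held the response element, 7.02% the GAS motif, 17.6% the kappaB motif, 5.38% the core and 6.02% the E-box. These shares are of windows, and some ligands had more than 1 window. Of 29 ligand windows, 11 held the kappaB motif, 6 the core, 2 the response element, 2 the GAS motif and 1 the E-box. Counted by gene, the kappaB motif was found in 10 of the 23 ligand genes, namely Ccl1, Ccl20, Ccl22, Ccl27a, Ccl27b, Cxcl1, Cxcl2, Cxcl3, Cxcl9 and Cxcl10. The core was found in 6 genes (Ccl3, Ccl17, Ccl27a, Ccl27b, Cxcl9 and Cxcl10), the response element in Cxcl10 and Cxcl14, the GAS motif in Ccl17 and Cxcl14, and the E-box in Cxcl3. A match of letters is a description of the sequence and not evidence of a binding site.

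Among the inflammatory CC ligands that act on monocytes, macrophages and T cells, Ccl5 and Ccl9 rose in KO mice. Ccl5, or RANTES, a product of T cells and NK cells among others, measured 18.4, 13.5 and 19.4 CPM in the WT mice against 27.3, 35.9 and 31.7 CPM in the KO mice, each given in the order of mouse number. Every KO mouse was above every WT mouse. The means were 17.1 ± 3.17 CPM (SD, n = 3) in WT and 31.6 ± 4.31 CPM (SD, n = 3) in KO mice, and the fitted log2 fold change was 0.89 ± 0.156 (SE) at an adjusted p of 0.0268. Ccl9, which attracts cells through CCR1, measured 10.7, 11.5 and 14.3 CPM in the WT mice against 21.4, 17.1 and 24.0 CPM in the KO mice. The groups again did not overlap. The means of Ccl9 were 12.2 ± 1.86 CPM (SD, n = 3) and 20.8 ± 3.49 CPM (SD, n = 3), and the fitted log2 fold change was 0.77 ± 0.158 (SE) at an adjusted p of 0.0389. Among the 6 fits with 1 mouse removed, Ccl5 stayed below 0.05 in 2 and Ccl9 in 1.

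The other 3 ligands of this kind were not called. Ccl4, made by activated macrophages and lymphocytes, had 10, 15 and 39 counts in the WT mice against 32, 60 and 39 counts in the KO mice. In CPM, WT6 and KO5 both lay at 1.26, so the groups touched there, and the other 2 KO mice were above all WT mice (log2 fold change 0.94 ± 0.396, SE, with 0.191 as its adjusted p). Ccl3, the close partner of Ccl4, measured 0.564, 1.34 and 4.24 CPM in the WT mice against 1.91, 1.38 and 2.67 CPM in the KO mice. WT6 exceeded every KO mouse while WT4 and WT5 lay below every KO mouse, and the log2 fold change of -0.10 became 1.05 without WT6. Ccl6, a ligand of CCR1 made by macrophages, measured 149, 125 and 132 CPM in the WT mice against 138, 132 and 156 CPM in the KO mice. These ranges largely coincide, with a log2 fold change of 0.07 ± 0.0883 (SE).

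Ccl12 was the only 1 of the 3 CCR2 ligands to rise. CCR2 brings inflammatory monocytes out of the bone marrow and into tissue. Ccl12, or MCP-5, had 26, 27 and 44 counts in the WT mice against 45, 105 and 45 counts in the KO mice. In CPM these were 1.05, 1.29 and 1.42 against 2.20, 2.20 and 2.22, and the groups did not overlap. The log2 fold change was 0.81 ± 0.180 (SE), with 0.0452 as its adjusted p, which is near the threshold. Ccl12 was past the threshold in none of the 6 fits with 1 mouse removed, where the adjusted p ran up to 0.159, and it had an adjusted p of 0.0939 from DESeq2.

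Ccl2 and Ccl7, the other CCR2 ligands, had all KO values within the WT range. Ccl2, or MCP-1, measured 0.483, 1.58 and 2.01 CPM in the WT mice against 1.08, 1.20 and 1.43 CPM in the KO mice. WT4 was the lowest and WT6 the highest of the 6 mice. Ccl7 had a log2 fold change of -0.06 ± 0.204 (SE), with 1.22 ± 0.191 CPM (SD, n = 3) in WT and 1.19 ± 0.114 CPM (SD, n = 3) in KO mice.

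Ccl8 rose most among the called ligands. In the mouse its product acts on CCR8, a receptor of T helper 2 and regulatory T cells. Ccl8 had 37, 58 and 122 counts in the WT mice against 158, 597 and 233 counts in the KO mice. The lowest KO mouse, KO4 at 7.72 CPM, was well above the highest WT mouse, WT6 at 3.95 CPM. The fitted change was 3.85-fold (log2 fold change 1.94 ± 0.347, SE, with 0.0279 as its adjusted p). Over the 6 fits with 1 mouse removed, the log2 fold change of Ccl8 lay between 1.65 and 2.32, and the adjusted p was at most 0.05 without KO4 and without KO5 only. Ccl1, the other CCR8 ligand, had 0, 1 and 1 counts in the WT mice against 0, 1 and 0 in the KO mice, which is below the floor.

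Cxcl9 and Cxcl10, the interferon-inducible ligands of CXCR3 on activated T cells and NK cells, were above WT in every KO mouse without passing the threshold. The fitted log2 fold change of Cxcl9 was the largest of the 29. Cxcl9 had 19, 38 and 103 counts in the WT mice against 114, 466 and 189 counts in the KO mice. In CPM these were 0.765, 1.82 and 3.33 against 5.57, 9.78 and 9.33, so the groups did not overlap and WT6 was the highest WT mouse. The log2 fold change, 2.04 ± 0.474 (SE), missed the threshold with an adjusted p of 0.0505. Cxcl10 measured 1.33, 1.53 and 3.17 CPM in the WT mice against 3.91, 4.47 and 5.83 CPM in the KO mice. WT6 was again the highest WT mouse, below every KO mouse. The log2 fold change of Cxcl10 was 1.21 ± 0.342 (SE), with 0.0812 as its adjusted p. Both genes passed 0.05 in edgeR's exact test and in DESeq2, where Cxcl9 had an adjusted p of 3.08e-05 and Cxcl10 of 0.00926. Exons of Cxcl10 share 133 bases with Art3 on the opposite strand, which had 4428 counts in all, and since the strand setting of the counting is not given, reads there cannot be assigned with certainty. Cxcl11, the third ligand and a polymorphic pseudogene in the annotation, had at most 2 counts in any mouse.

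Xcl1, or lymphotactin, which NK and CD8 T cells make and which binds XCR1 on cross-presenting dendritic cells, had 5, 10 and 14 counts in the WT mice against 10, 45 and 18 counts in the KO mice. The KO values of 0.489, 0.944 and 0.889 CPM were above the WT values of 0.201, 0.479 and 0.453 CPM, by little between KO4 and WT5. At these counts the log2 fold change, 1.06 ± 0.398 (SE), reached an adjusted p of 0.153.

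**Figure D2:**
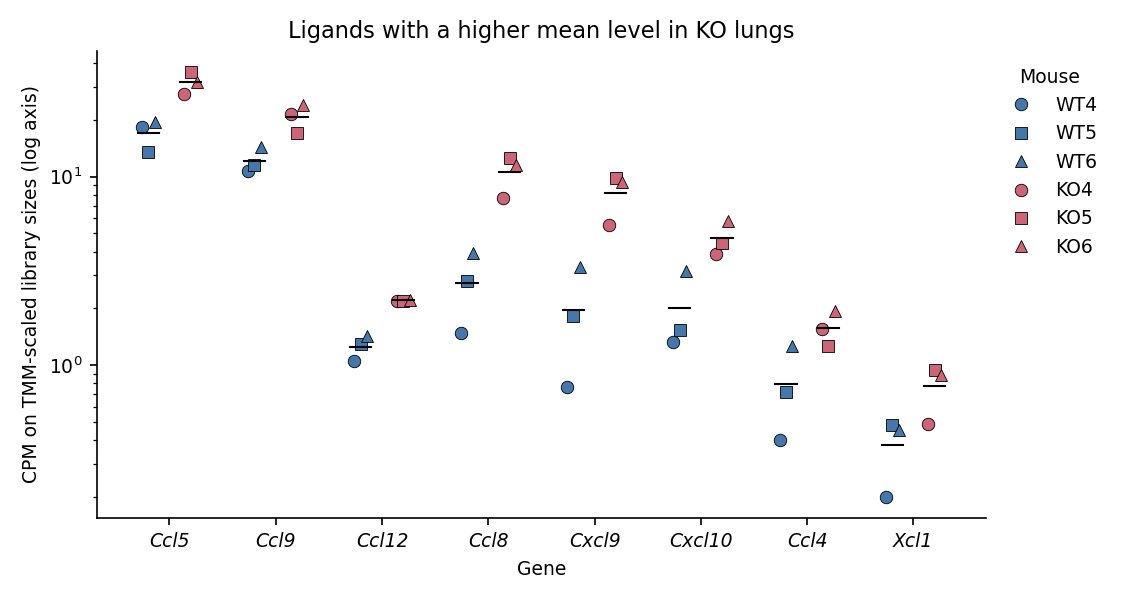
Level of 8 ligands in each mouse, in CPM on a log axis, with WT mice in blue, KO mice in red, a symbol for each mouse and a line at the mean of each group (n = 3). The 3 KO mice lie above the 3 WT mice in 7 of the 8 genes, and in Ccl4 the highest WT mouse, WT6, lies at the level of KO5, both at 1.26 CPM.

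The neutrophil-attracting ligands of CXCR2 were low and did not pass the test in either direction. Cxcl1 measured 0.951 ± 0.549 CPM (SD, n = 3) in WT and 0.958 ± 0.346 CPM (SD, n = 3) in KO mice. Cxcl2 measured 0.523, 0.575 and 2.33 CPM in the WT mice against 1.22, 0.462 and 0.691 CPM in the KO mice. WT6 held the highest value of both genes. The log2 fold changes of Cxcl1, Cxcl2 and Cxcl3 were -0.09, -0.65 and 0.66, with adjusted p between 0.503 and 0.934 from edgeR. Cxcl5 had 3 to 19 counts per mouse and was not tested.

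WT6 was the highest WT mouse in 17 of the 29 tested ligands. Ccl2, Ccl3, Cxcl1 and Cxcl2 had their highest value of all 6 mice in WT6, the mouse with the highest sum of immediate early genes, and these 4 were singled out after their values were seen. Without WT6 the log2 fold change was 0.27 for Ccl2, 1.05 for Ccl3, 0.54 for Cxcl1 and 0.46 for Cxcl2, whereas with all mice each was negative. The spread between WT mice was 94.5% of the mean for Ccl3 and 90.0% for Cxcl2 (coefficient of variation), against 32.5% and 49.3% between KO mice. Whether the state of the WT6 lung set these values was not tested.

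**Figure D3:**
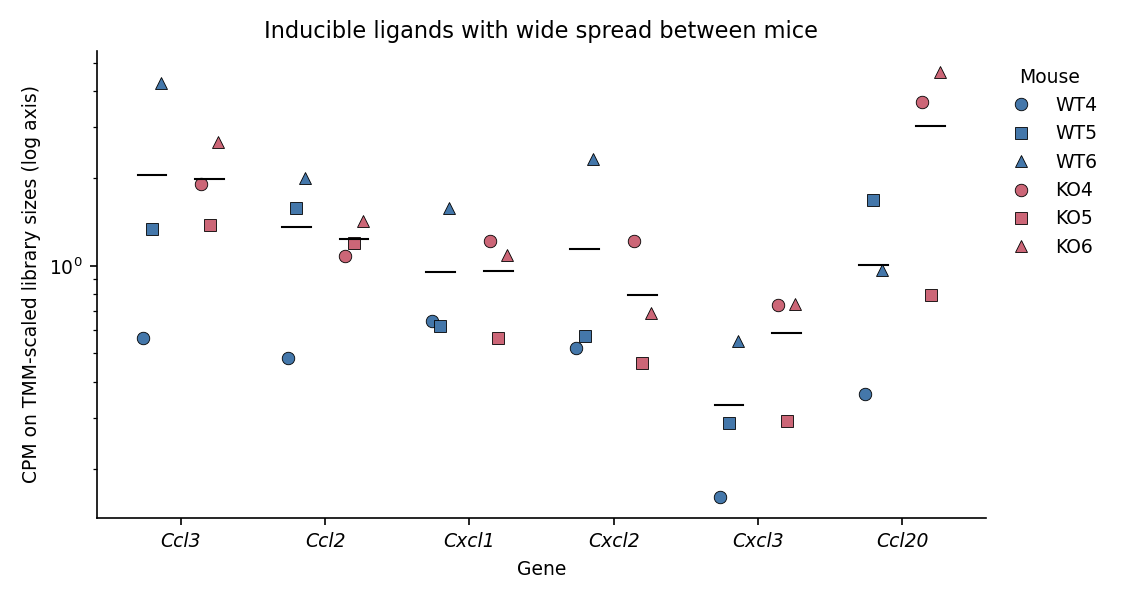
Level of 6 inducible ligands in each mouse, in CPM on a log axis, with a symbol for each mouse and a line at each group mean (n = 3). WT6 (blue triangle) has the highest value in Ccl3, Ccl2, Cxcl1 and Cxcl2, and in Ccl20 the KO mice are spread from 0.797 CPM in KO5 to 4.64 CPM in KO6.

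The ligands of CCR3 and CCR4, which act on eosinophils and on T helper 2 cells, did not pass the test. Ccl11, or eotaxin, measured 3.78, 5.42 and 5.89 CPM in the WT mice against 3.76, 3.44 and 3.80 CPM in the KO mice. WT4 lay at the level of the KO mice, and the log2 fold change, -0.46 ± 0.188 (SE), gave 0.0439 as its unadjusted and 0.182 as its adjusted p in edgeR. Ccl24, or eotaxin-2, had a log2 fold change of -0.15 that turned positive, at 0.14, without KO4, and Ccl26 had 1 count in KO5 and none in the other mice. Of the CCR4 ligands, which dendritic cells make, Ccl17 measured 4.79 ± 0.697 CPM (SD, n = 3) in WT and 3.84 ± 1.09 CPM (SD, n = 3) in KO mice. Ccl22 measured 6.85 ± 0.701 CPM (SD, n = 3) and 7.97 ± 2.92 CPM (SD, n = 3).

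The mucosal ligands of CCR6, CCR9 and CCR10 were split in direction, with 2 of 4 tested positive and none called. Ccl20, the CCR6 ligand of epithelium, measured 0.362, 1.68 and 0.970 CPM in the WT mice against 3.67, 0.797 and 4.64 CPM in the KO mice. KO4 and KO6 were above all WT mice, while KO5, the library low in airway epithelium genes, was below WT5 and WT6. With all mice its log2 fold change was 1.57 ± 0.725 (SE, adjusted p = 0.231), and without KO5 it was 2.07 (adjusted p = 0.0574). Ccl28 had a log2 fold change of 0.63, Ccl25, the thymic and intestinal ligand of CCR9, of -0.30, and Ccl27a of -0.20. Ccl25 shares 204 exon bases with Elavl1 on the opposite strand and is uncertain for that reason. Ccl27b and the other 2 identifiers that carry the symbol Ccl27a had 0 counts in every mouse, and reads of near-identical copies may be split or dropped in counting.

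Cxcl15, the epithelial ligand, held most of the ligand RNA per length. Per length, the mean level over all 6 mice was highest for Cxcl15 at 403 CPM per kb of exon, followed by Ccl6 at 77.3, Cxcl14 at 51.2, Cxcl12 at 38.4, Cxcl17 at 36.2 and Ccl5 at 25.4 CPM per kb. Cxcl15 made up 57.1 to 59.4% of the summed CPM per kb of all ligands in the WT mice and 51.4 to 55.7% in the KO mice. Its CPM values were 929.9, 860.0 and 879 in the WT mice against 888, 704 and 885 in the KO mice, with KO5 lowest, and the log2 fold change was -0.11 ± 0.0992 (SE). Neighbours in the order could exchange places between groups. Ccl5 was below Cxcl16 in WT mice (17.8 against 21.4 CPM per kb) and above it in KO mice (33.0 against 21.0), and Ccl8 moved from 5.36 to 20.7 CPM per kb.

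Cxcl14, a homeostatic ligand of epithelium and fibroblasts, was the ligand nearest to a fall. It measured 105, 108 and 94.6 CPM in the WT mice against 81.4, 81.6 and 90.2 CPM in the KO mice, with no overlap. The log2 fold change, -0.28 ± 0.0693 (SE), gave an adjusted p of 0.0578 by the quasi-likelihood test, 0.0342 by edgeR's exact test and 0.0113 by DESeq2. Cxcl17, a mucosal ligand, measured 23.5, 36.1 and 33.5 CPM in the WT mice against 27.6, 16.7 and 27.8 CPM in the KO mice, and WT4 lay among the KO values.

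Cxcl12, the ligand of CXCR4, measured 329, 256 and 263 CPM in the WT mice against 397, 346 and 294 CPM in the KO mice. KO6 was below WT4, and the log2 fold change, 0.29 ± 0.135 (SE), had an adjusted p of 0.233 from edgeR. The membrane-anchored ligands had log2 fold changes of -0.03 and 0.09. Cxcl16, the ligand of CXCR6, measured 64.6 ± 2.08 CPM (SD, n = 3) in WT and 63.5 ± 6.00 CPM (SD, n = 3) in KO mice. Cx3cl1, or fractalkine, measured 50.3 ± 4.23 CPM (SD, n = 3) and 53.7 ± 8.0 CPM (SD, n = 3). Cxcl16 shares 552 exon bases with Zmynd15 on the opposite strand.

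**Figure D4:**
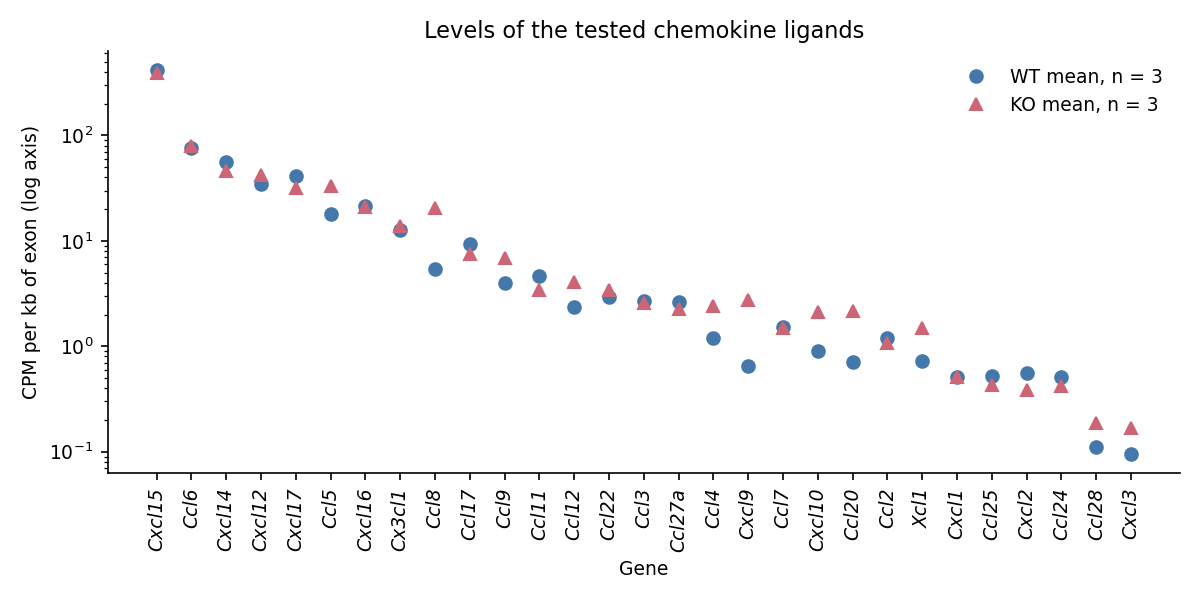
Mean level of each tested ligand per length, in CPM per kb of exon on a log axis, for WT mice (blue circles) and KO mice (red triangles), n = 3 each, ordered by the mean over all mice. Cxcl15 at 403 CPM per kb leads, and the gap between the groups is wide for Ccl8 (5.36 against 20.7) and Cxcl9 (0.654 against 2.73).

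The pseudogene Ccl19-ps1 had 2 counts in each WT mouse and 5, 17 and 9 counts in the KO mice. It was not tested in the main fit, since it did not pass the filter. Against the floor of 3 counts per library, the KO mean was at least 2.89-fold higher. Reads of this pseudogene and of near-identical functional copies may be exchanged in counting, so its level is uncertain. Ccl19-ps3 had 0 counts in every mouse.

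All 4 called ligands lie on chromosome 11 in the Ccl clusters, which is the chromosome of Zpbp2. The clusters run from 82035571 to 83664683 on GRCm38, a length of 1.63 Mb that ends 14.9 Mb before Zpbp2. Ccl12 (ENSMUSG00000035352) spans 82101845 to 82103400 and Ccl8 (ENSMUSG00000009185) spans 82115185 to 82116799, both on the plus strand. Ccl5 (ENSMUSG00000035042) spans 83525778 to 83530518 and Ccl9 (ENSMUSG00000019122) spans 83572919 to 83578636, both on the minus strand. The clusters hold 11 of the ligand genes, 10 of them tested. The 10 had a median log2 fold change of 0.42, and 4 were called higher, beside 3.72% of all genes. The 19 ligands tested elsewhere had a median of -0.03 and none was called by edgeR's quasi-likelihood test, where 4 (21.1%, beside 25.5% of all genes) had an unadjusted p of at most 0.05, while DESeq2 and edgeR's exact test called Cxcl9, Cxcl10 and Cxcl14. The position of the ligands was looked at after their values were known, so the contrast is a description. Within the same interval, 30 other genes were tested, with a median of 0.12. Of these, 5 were higher and 1 was lower, beside 3.72% and 2.67% of all genes. The 5 were Slfn2, Slfn4, Slfn8, Slfn10-ps and AI662270, of which the first 4 belong to the Schlafen family of immune cells, and the 1 was Mmp28. The ligands and the Schlafen genes are both expressed in leukocytes, and whether position had a part was not tested.

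Some neighbours in the clusters differed in the size of their fold change. Ccl9 and Ccl6 are 9.24 kb apart, and the log2 ratio of Ccl9 to Ccl6 was -3.48 ± 0.30 (SD, n = 3) in WT and -2.78 ± 0.14 (SD, n = 3) in KO mice, with no overlap (two-sided exact permutation test, p = 0.1). Ccl12 and Ccl8 are 11.8 kb apart and both rose, whereas Ccl11, on the other side of Ccl12, did not. The log2 ratio of Ccl8 to Ccl11 was -0.96 ± 0.38 (SD, n = 3) in WT and 1.5 ± 0.42 (SD, n = 3) in KO mice (two-sided exact permutation test, p = 0.1). Of the 5 ratios computed, those of Ccl12 to Ccl2 and of Ccl5 to Ccl3 overlapped between groups, and that of Cxcl9 to Cxcl10 did not, with -0.16 ± 0.56 (SD, n = 3) and 0.77 ± 0.32 (SD, n = 3). The pairs were chosen after the values were seen, and adjusted over the 5 ratios no p was below 0.167 (exact permutation tests with Benjamini-Hochberg adjustment).

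**Figure D5:**
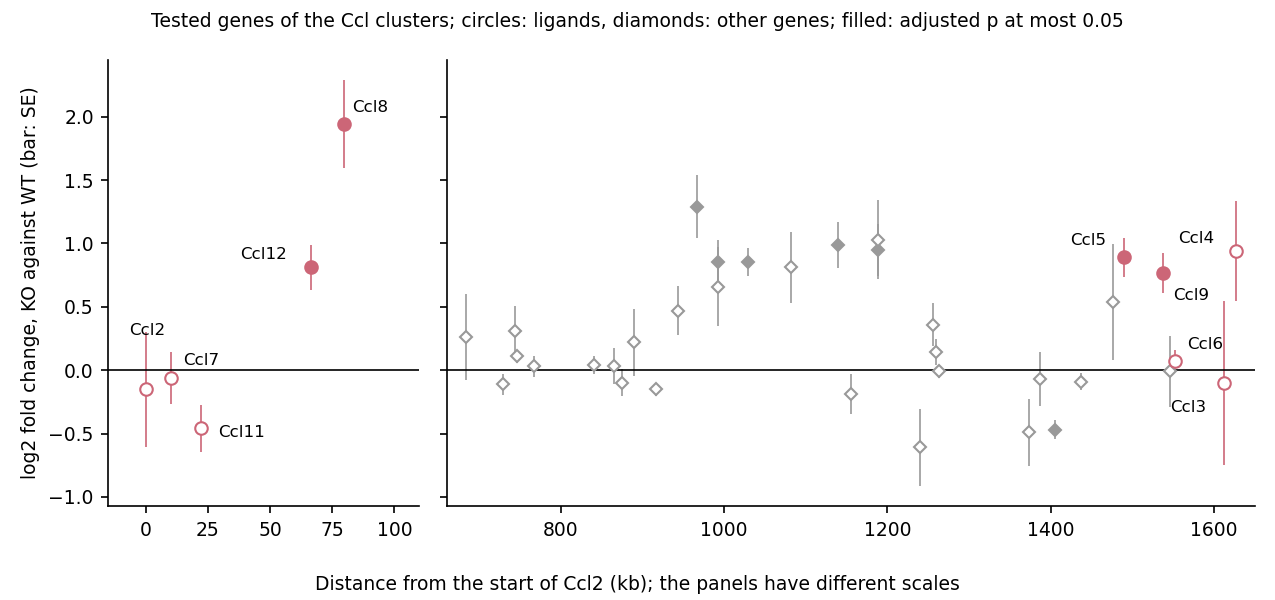
Log2 fold change with its standard error for all 40 tested genes between Ccl2 and Ccl4 on chromosome 11, against the distance from the start of Ccl2 in kb, with ligands as red circles and other genes as grey diamonds, and filled symbols for an adjusted p of at most 0.05 (edgeR). Ccl12 and Ccl8 stand at 66.3 and 79.6 kb and Ccl5 and Ccl9 at 1490.2 and 1537.3 kb, with 5 filled diamonds above 0 and 1 below.

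Chemokine receptor genes lay mostly higher in KO mice, in a list that includes Ccr7 and Cxcr5, receptors of the homing chemokines excepted above. Of 19 receptor genes 17 were tested, 16 had a positive log2 fold change with a median of 0.72, and 5 were called higher, beside 3.72% of all genes. None was called lower by edgeR's quasi-likelihood test, edgeR's exact test or DESeq2, nor at an unadjusted p of 0.05. Those called included Ccr2 (log2 fold change 0.83, adjusted p 0.0176), Cxcr3 (1.05 and 0.0390), Cx3cr1 (1.52 and 0.0118) and Xcr1 (0.65 and 0.0426), in the same order of values and from the same edgeR fit. Ccr2 is the receptor of Ccl12. Ccr1, which the product of Ccl9 binds, had 7.67 ± 0.666 CPM (SD, n = 3) in WT and 10.2 ± 1.34 CPM (SD, n = 3) in KO mice, and its log2 fold change of 0.41 was not called (adjusted p = 0.111 from edgeR). Ccr8, the receptor of Ccl8, had 7, 6 and 30 counts in the WT mice against 11, 27 and 14 in the KO mice, with a log2 fold change of 0.14 (adjusted p = 0.894 from edgeR). The 5 genes listed as atypical receptors were Ackr1, Ackr2, Ackr3 and Ackr4, which bind chemokines without the usual signalling, and Ccrl2. Their median log2 fold change was -0.04, and 2 of 5 were positive. The summed level of the 5 was 155 to 162 CPM in WT and 129 to 147 CPM in KO mice. Ackr1 was called higher (1.34 on the log2 scale, adjusted p = 0.0303 from edgeR), but not by DESeq2 (adjusted p = 0.0558). Ackr2 was lower in every KO mouse than in any WT mouse, with a log2 fold change of -0.32 that edgeR did not call (adjusted p = 0.114) and DESeq2 did (adjusted p = 0.0449).

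Of 28 genes that carry the signal from these receptors, 12 were higher by edgeR's quasi-likelihood test, beside 3.72% of all genes. The median log2 fold change of the 28 was 0.45. None was called lower. At an unadjusted p of at most 0.05 in that test, 20 were higher and 2 lower, beside 13.9% and 11.6% of all genes. The 12 called included Gngt2, Pik3cg, Prkcd, Rac2, Dock2, Vav1, Fgr, Lyn, Was, Ncf1 and Tiam1, which are largely leukocyte genes. Of 18 genes for inducers of chemokines and their receptors, 12 were tested and 2 were called higher, beside 3.72% of all genes. Among them, Il10ra, the receptor chain of interleukin-10, had a log2 fold change of 1.25 (adjusted p = 0.0227 from edgeR). Ifng, which induces Cxcl9, had 7, 2 and 12 counts in the WT mice against 8, 24 and 12 counts in the KO mice and was not tested. In CPM all KO mice were above all WT mice for Ifng, by very little between KO4 and WT6, beside 17.0% of all genes tested. Irf1 had a log2 fold change of -0.02.

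Calls among genes that mark leukocytes differed from list to list, beside the 3.72% of all genes called higher. Of 12 monocyte genes 9 were higher, and their summed level was 2161 to 2267 CPM in WT and 2483 to 2638 CPM in KO mice. Cd300e, Ms4a4c and Adgre4, which are among the 9, are also listed by the paper as higher in these same mice. The monocyte count is therefore not independent of earlier results from these data. Of 12 interstitial macrophage genes 5 were higher, with 727 to 786 CPM in WT and 671 to 718 CPM in KO mice, so the sum moved the other way from the called genes. Of 10 neutrophil genes 8 were tested and 3 were higher (61.0 to 99.6 against 154 to 176 CPM), and of 9 NK cell genes 1 was higher (35.7 to 49.6 against 57.5 to 75.4 CPM). None of the 10 T cell genes was called by edgeR's quasi-likelihood test, where 8 had an unadjusted p of at most 0.05, with 2 called by edgeR's exact test and 5 by DESeq2, and the sum was 60.8 to 71.9 CPM in WT and 77.0 to 184 CPM in KO mice, with KO5 highest. None of the 10 B cell genes was called either, where all 10 had an unadjusted p of at most 0.05, with 10 called by edgeR's exact test and 6 by DESeq2, and the sum was 346 to 1636 against 3151 to 4472 CPM. Of 10 alveolar macrophage genes 2 were higher, with 556 to 852 against 732 to 891 CPM, and of 10 dendritic cell genes 3 were higher and 1 lower, with 133 to 151 against 142 to 157 CPM. None of the markers in these 8 lists was at 0 in all mice.

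Of 5 genes of lymphoid stroma and its vessels 2 were tested, and the summed level of the 5 was 4.31 to 9.64 CPM in WT and 14.6 to 55.7 CPM in KO mice, with KO5 highest. Glycam1, a product of high endothelial venules, had 0, 2 and 5 counts in the WT mice against 9, 172 and 53 counts in the KO mice, and was called higher (log2 fold change 4.60 ± 0.963, SE, adjusted p = 0.0407 from edgeR). Without KO5 it did not pass the filter for testing, and in the other 5 fits with 1 mouse removed it was called in 1. Cxcl13, 1 of the homing chemokines excepted above, had a log2 fold change of 2.10 and was not called (adjusted p = 0.0706 from edgeR), and Ccl19 and Ccl21a had 0 counts in every mouse, where reads of near-identical copies may have been dropped in counting. In whole lung, more cells of a type and more RNA per cell cannot be told apart, and the part of these cells in the levels of the ligands was not tested. All 5 red cell genes were called lower, beside 2.67% of all genes, with 2126 to 2277 CPM in WT and 1035 to 1411 CPM in KO mice.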

How the data were processed

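Per the submitters' processing notes, reads of stranded TruSeq mRNA libraries were handled with Trimmomatic 0.36, STAR 2.5.3a, Picard 2.9.0 and HTSeq 0.6.0 on GRCm38. The authors deposited whole-number read counts per Ensembl gene without normalization, 1 column per mouse. The annotation release and the strand setting of the counting are not given in the sources used here. Libraries were assigned to WT or KO mice by their titles.

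All 6 libraries were fitted in R 4.3.3 with edgeR 4.0.16 (filterByExpr with minimum count 10 and minimum total 15, TMM factors, glmQLFit and glmQLFTest, no covariates), and p-values were adjusted by Benjamini-Hochberg over the 17037 genes kept. Thresholds were an adjusted p of at most 0.05 and, for both thresholds, a log2 fold change of at least 1.5 in size. The standard error is the log2 fold change divided by the square root of F. Log2 ratios were taken of the counts of a mouse. Alternatives were DESeq2 size factors, upper-quartile factors, edgeR's exact test, DESeq2 1.42.0, 10 counts or more required in every library, no filter, the replicate number as a block, and each mouse left out. The fits were tested on simulated data with 200 changed genes. Per-mouse values are given for ligands with an unadjusted p of at most 0.05, a log2 fold change of at least 1 in size, or one of the 6 highest levels per kb, and some others were added after their values were seen. Ligands and gene lists were chosen with earlier results of these data known. Positions and exon lengths were read from GENCODE release 21, which does not place 2 of the 38 ligand genes, and promoters from RefSeq. Nothing says how litters or cages fell between groups, so p-values measure the spread between these mice. The library titles also carry a number for each mouse, in separate ranges for WT and KO mice. What these numbers stand for is not given, and anything that goes with them cannot be told apart from genotype. Tables were made with Python 3.11.15, SciPy 1.17.1, pandas 2.3.3 and NumPy 2.4.6, and figures with Matplotlib 3.10.9. Results for a few genes of the lists are not reported here.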

Additional observations from a re-analysis of the deposited data

How the results depend on the processing

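With 3 mice per group, the count of ligands higher in KO mice was 4 and stayed between 4 and 6 under other scaling factors, filters and tests. The ligands counted were not always the same. Without a filter and with DESeq2, Ccl12 was not called and Cxcl9 and Cxcl10 were, and without a filter Ccl19-ps1 was called too. With each mouse left out the count ranged from 0 to 3. The count lower in KO mice, 0 in the main test, was 1 (Cxcl14) without a filter, with edgeR's exact test and with DESeq2. The count past both thresholds, 1, was 3 without a filter, namely Ccl8, Cxcl9 and Ccl19-ps1. That count was 2 with at least 10 counts in every library, with the exact test and with DESeq2, and 0 to 2 with a mouse left out. The count of receptors higher, 5, was 8 with DESeq2 and 0 to 10 with a mouse left out. The median log2 fold change of the tested ligands, 0.07, was -0.04 with at least 10 counts in every library, where fewer ligands were tested, and -0.01 to 0.27 with a mouse left out.

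The labels do not say whether mice of the same replicate number were paired, and no pairing was assumed. Deviations of same-numbered WT and KO mice correlated at -0.032, -0.154 and -0.021 (across genes). Differently numbered mice ranged from -0.229 (WT4 with KO6) to 0.261 (WT5 with KO6). Such correlations cannot exclude a shared batch. With the replicate number as a block the counts were 1 ligand and 1 receptor higher, 0 lower and 1 past both thresholds, and the median was 0.08. In that fit the log2 fold change was 0.24 for Ccl3 and 0.05 for Cxcl1, both opposite in sign to the main fit.

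With a mouse left out, the sign also turned for Ccl3 (-0.54 to 1.05), Cxcl1 (-0.32 to 0.54), Cxcl2 (-1.09 to 0.46), Ccl2 (-0.55 to 0.27), Ccl7 (-0.17 to 0.03), Ccl22 (-0.10 to 0.45), Ccl24 (-0.94 to 0.14) and Cxcl16 (-0.09 to 0.04), none of them called. The cause was not tested beyond the values given for WT6. Low counts limit Xcl1, Ccl2, Ccl3, Ccl4, Ccl7, Ccl20, Ccl24, Ccl28, Cxcl1, Cxcl2 and Cxcl3, the called ligand Ccl12, and the 9 ligands not tested. On the WT side they also limit Cxcl9, with 19 counts in WT4, and Cxcl10, with 32 counts in WT5.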

Other observations

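Chemokines whose symbols follow another pattern were Pf4 and Ppbp, both products of platelets. Ppbp measured 29.9 ± 0.879 CPM (SD, n = 3) in WT and 21.0 ± 3.93 CPM (SD, n = 3) in KO mice, and KO mice lay below WT mice without overlap (log2 fold change -0.52, adjusted p = 0.0618 in edgeR). Pf4 had a log2 fold change of -0.31 (adjusted p = 0.194 from the same test in edgeR). Over 9 platelet marker genes the median was -0.35 on the log2 scale, 1 of 9 was positive, and none was called by edgeR's quasi-likelihood test (1 had an unadjusted p of at most 0.05), edgeR's exact test or DESeq2. The cytokine gene Il10 had 3, 2 and 5 counts in the WT mice against 7, 28 and 7 counts in the KO mice, and Il4 had 2, 4 and 5 against 8, 15 and 13 counts. Both were below the filter for testing, and their WT counts of 2 to 5 lie around the floor of 3 counts. In CPM all KO mice were above all WT mice, a separation also seen in 17.0% of all genes tested.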
